A study of Mus musculus with 6 samples.

Results

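The 37 genes described here encode transcription factors that set the identity of cells and tissues in the embryo, in LIM, PAX, sine oculis, GATA, NK, forkhead, Iroquois, other homeobox, basic helix-loop-helix and zinc finger families. They were picked by name, with earlier results of these data known, as lineage regulators that Polycomb typically represses. Each was found once among the 23358 entries of the gene table. The libraries came from immature chondrocytes taken from the ends of the femur and tibia, at the hip and knee, of mice at post-natal day 5, on a strain labelled as a C57BL/6 mix. The cells were kept in 2% serum and then differentiated in micromass, a dense drop of cells that lays down cartilage matrix, with ascorbic acid at 0.05 mg/mL, β-glycerol phosphate at 10 mM and a supplement of insulin, transferrin and selenium. Ezh2-deficient cells, titled Ezh2_cKO, were compared with wildtype cells at days 3, 7 and 14, and each genotype gave 1 library a day, 6 in all. All 6 libraries shared the medium, the age and the labelled strain. The Cre driver, the deleted part of Ezh2, the number of animals and whether animals were pooled were not stated in the sources used here.

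Ezh2 is the methyltransferase of Polycomb repressive complex 2, which marks histone H3 at lysine 27 and keeps genes of other lineages off. Its classic targets are genes for developmental transcription factors, whose promoters are often rich in CpG dinucleotides. In limb cartilage a few of these factors act in their own right, such as the hindlimb gene Pitx1 and the chondrocyte factor Nkx3-2, whereas others, such as the heart gene Nkx2-5, belong to different tissues. Neither the histone mark nor Polycomb binding was measured in these libraries, so membership of the set rests on what is known of these genes elsewhere.

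Promoter sequence was available from RefSeq (GRCm38.p6, the same assembly as mm10) for 28 of the 37 genes, as the 300 bases from 250 before to 50 after a start site. Sequences of 4 genes are shown to compare genes at different levels: Isl1 (chr13:116309639-116309938, minus strand), Irx3 (chr8:91801605-91801904, minus strand), Barx1 (chr13:48662786-48663085, plus strand) and Nkx2-3 (chr19:43612075-43612374, plus strand). Each runs 5′ to 3′ on the gene's strand, and capitals mark every CG dinucleotide, which reads the same on both strands.
Isl1: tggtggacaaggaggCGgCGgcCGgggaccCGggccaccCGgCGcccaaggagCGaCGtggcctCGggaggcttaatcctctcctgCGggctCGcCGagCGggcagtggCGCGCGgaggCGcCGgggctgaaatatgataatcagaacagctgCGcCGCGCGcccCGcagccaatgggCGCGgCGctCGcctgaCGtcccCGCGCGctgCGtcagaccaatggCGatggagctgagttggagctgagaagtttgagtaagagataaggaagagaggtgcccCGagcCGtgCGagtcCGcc
Irx3: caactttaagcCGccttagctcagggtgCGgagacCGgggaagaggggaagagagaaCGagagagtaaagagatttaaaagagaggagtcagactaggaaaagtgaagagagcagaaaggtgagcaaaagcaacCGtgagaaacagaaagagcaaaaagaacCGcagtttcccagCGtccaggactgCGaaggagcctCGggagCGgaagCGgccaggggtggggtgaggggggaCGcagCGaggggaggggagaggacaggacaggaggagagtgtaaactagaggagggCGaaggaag
Barx1: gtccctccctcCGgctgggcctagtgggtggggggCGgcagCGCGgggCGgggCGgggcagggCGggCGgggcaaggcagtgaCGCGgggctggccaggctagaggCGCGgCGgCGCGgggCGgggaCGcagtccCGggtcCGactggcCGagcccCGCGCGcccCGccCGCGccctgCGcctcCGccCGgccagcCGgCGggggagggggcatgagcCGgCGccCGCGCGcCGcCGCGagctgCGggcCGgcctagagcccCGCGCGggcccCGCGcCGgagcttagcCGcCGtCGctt
Nkx2-3: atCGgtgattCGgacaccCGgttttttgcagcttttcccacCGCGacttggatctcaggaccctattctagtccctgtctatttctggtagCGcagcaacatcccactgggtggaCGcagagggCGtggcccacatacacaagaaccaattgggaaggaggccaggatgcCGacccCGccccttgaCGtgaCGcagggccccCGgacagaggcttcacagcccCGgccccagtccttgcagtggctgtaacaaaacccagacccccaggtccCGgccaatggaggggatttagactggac
Barx1 held 50 CG dinucleotides in this window, Isl1 37, Irx3 14 and Nkx2-3 15. The ratio of observed to expected CpG was 0.94 for Barx1, 1.05 for Isl1, 0.748 for Irx3 and 0.559 for Nkx2-3.

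Depth ran from 57319966 to 79323302 counts in Ezh2-deficient libraries and from 51985214 to 70489216 in wildtype libraries. Every count was even, so 2 counts are taken as 1 sequenced fragment. Levels are counts per 1000000 after scaling by TMM (trimmed mean of M values), called CPM, and 3 fragments correspond to 0.0763 to 0.114 CPM. Ezh2 itself was at 14.7, 23.0 and 17.6 CPM in Ezh2-deficient libraries at days 3, 7 and 14, against 24.7, 40.2 and 27.9 CPM in wildtype libraries (log2 fold change -0.74 ± 0.08 SE, adjusted p = 0.0729). Reads outside the deleted part would still be counted, so these values do not check the labels. All 12 cartilage markers found in the table reached 1 CPM in at least 1 library, and their summed level was 26060 to 142000 CPM in Ezh2-deficient and 40370 to 146600 CPM in wildtype libraries. Xist was lower in the Ezh2-deficient library of each pair (842, 677 and 513 CPM in Ezh2-deficient, 1065, 1130 and 1223 CPM in wildtype libraries), and the 4 Y-linked genes Ddx3y, Eif2s3y, Kdm5d and Uty were higher in it on each day. The labels give no sex, and any difference in the sex makeup of the cultures cannot be told apart from genotype.

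Of the 37 genes, 25 reached at least 1 CPM in at least 1 library, a share of 67.6%, against 60.1% of all entries. A group of 6 was at or above 10 CPM in all 6 libraries: Foxc1, Pitx1, Barx1, Twist1, Irx3 and Foxd1. At the other end, 5 genes had at most 3 fragments in every library, a share of 13.5% against 26.1% of all entries. They were Nkx2-3, a gene of gut and spleen mesenchyme, Nkx2-5 and Gata5 of the heart, Pax7 of muscle progenitors and Lhx8 of forebrain neurons. Nkx2-3 had 0 fragments in all 6 libraries, so its level was under 0.0763 to 0.114 CPM, depending on the library, by the limit that a count of 0 allows. Pax7 had 0, 2 and 1 fragments in Ezh2-deficient libraries at days 3, 7 and 14 and 0 in each wildtype library, and Lhx8 had 1, 3 and 1 in Ezh2-deficient and 0, 2 and 0 in wildtype libraries. Gata4, a factor of heart and endoderm, had 5, 3 and 1 fragments in Ezh2-deficient libraries, against 2, 4 and 2 in wildtype libraries. Foxl2, a factor of ovarian granulosa cells, had 1 fragment in each Ezh2-deficient library, against 11, 2 and 2 in wildtype libraries. The day 3 ratio of Foxl2 was 0.0806 (95% exact counting interval 0.00187 to 0.555). Gata5 had at most 3 fragments, and its highest value was in the wildtype library of day 14.

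**Figure D1:**
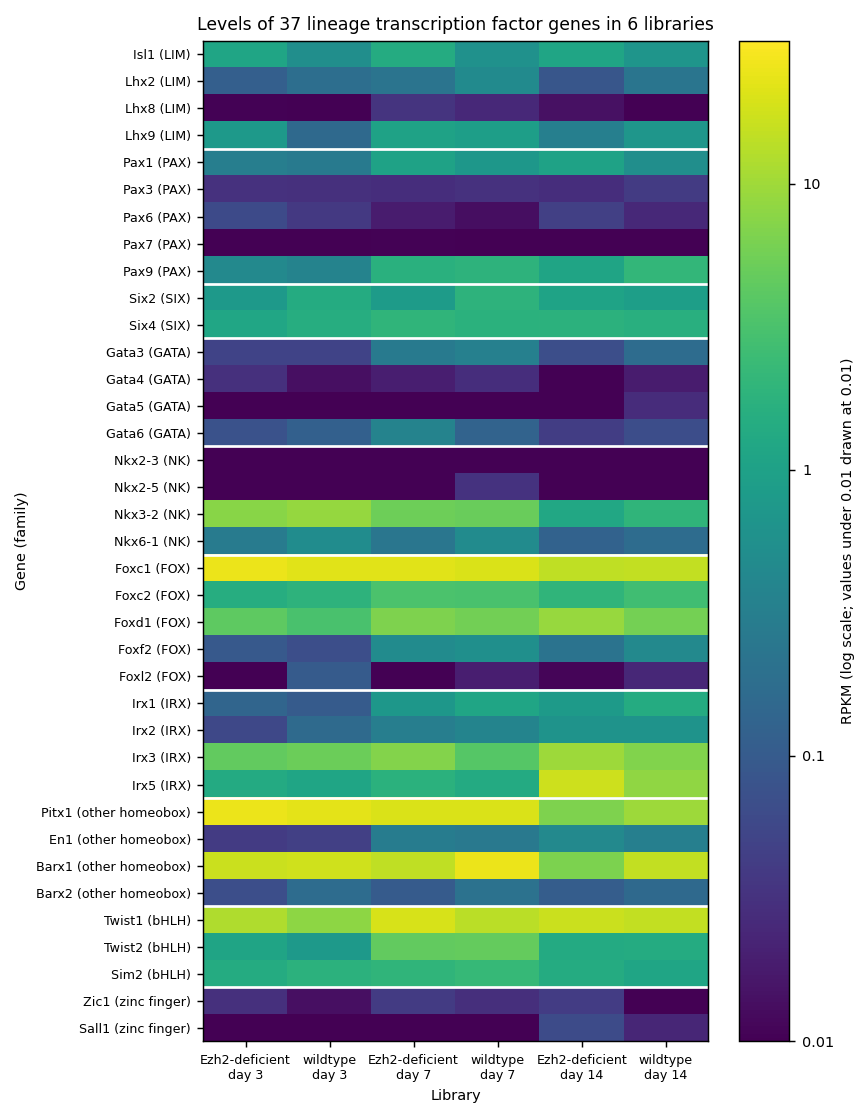
Deposited RPKM (reads scaled by coding length and library size, colour on a log scale) of the 37 genes in rows, by family, and the 6 libraries in columns by day, Ezh2-deficient left of wildtype. Foxc1, Pitx1, Barx1 and Twist1 are bright in every library, and Nkx2-3, Nkx2-5 and Pax7 are dark in nearly all.

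Compared per length, Foxc1 was at 14.7 to 25.0 RPKM in Ezh2-deficient and 15.1 to 22.0 RPKM in wildtype libraries. Pitx1 was at 6.64 to 24.9 RPKM in Ezh2-deficient and 9.63 to 22.7 RPKM in wildtype libraries. Barx1 was at 6.40 to 16.7 RPKM in Ezh2-deficient and 15.0 to 25.3 RPKM in wildtype libraries. Within libraries, Foxc1 was above Barx1 in all but wildtype day 7, where it was at 19.9 RPKM against 25.3 RPKM for Barx1. Foxc1 was above Pitx1 in every Ezh2-deficient library but not at days 3 and 7 in wildtype. No full order of the 3 genes thus held in every library.

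The genotype difference was fitted over the 3 days, which stood in for replicates, and 30 of the 37 genes passed the filter on low counts. The spread over days mixes replicate error with any change of the difference over time. No gene of the set passed at an adjusted p under 0.05 in edgeR, in which 0.0% of 16280 genes passed upward and 0.0123% downward. At an unadjusted p under 0.05, Isl1, Twist1, Foxd1 and Irx5 were higher in Ezh2-deficient libraries, a share of 13.3% of the 30 against 6.82% of all genes. Lhx2 and Barx1 were lower at that level, 6.67% against 6.33%. The fitted differences were positive for 15 genes and negative for 15, with a median of 0.00 (log2), as over all genes. On each of the 3 days 8 genes were higher in the Ezh2-deficient library, 26.7% against 18.0% of all genes, and 5 were lower, 16.7% against 18.3%. DESeq2 called Isl1 and Twist1 higher, 6.67% of the 30 against 2.34% of all genes, and 0 lower, against 1.5%. limma-voom called 0 in either direction, against 0.19% of all genes upward and 0.0553% downward, with 5 of the set higher (16.7%, against 7.51%) and 3 lower (10.0%, against 7.28%) when p was not adjusted. Without the day 3 pair edgeR called Irx3 higher and Barx1 lower, 3.7% each of 27 genes tested, against 2.42% and 3.04% of all genes.

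**Figure D2:**
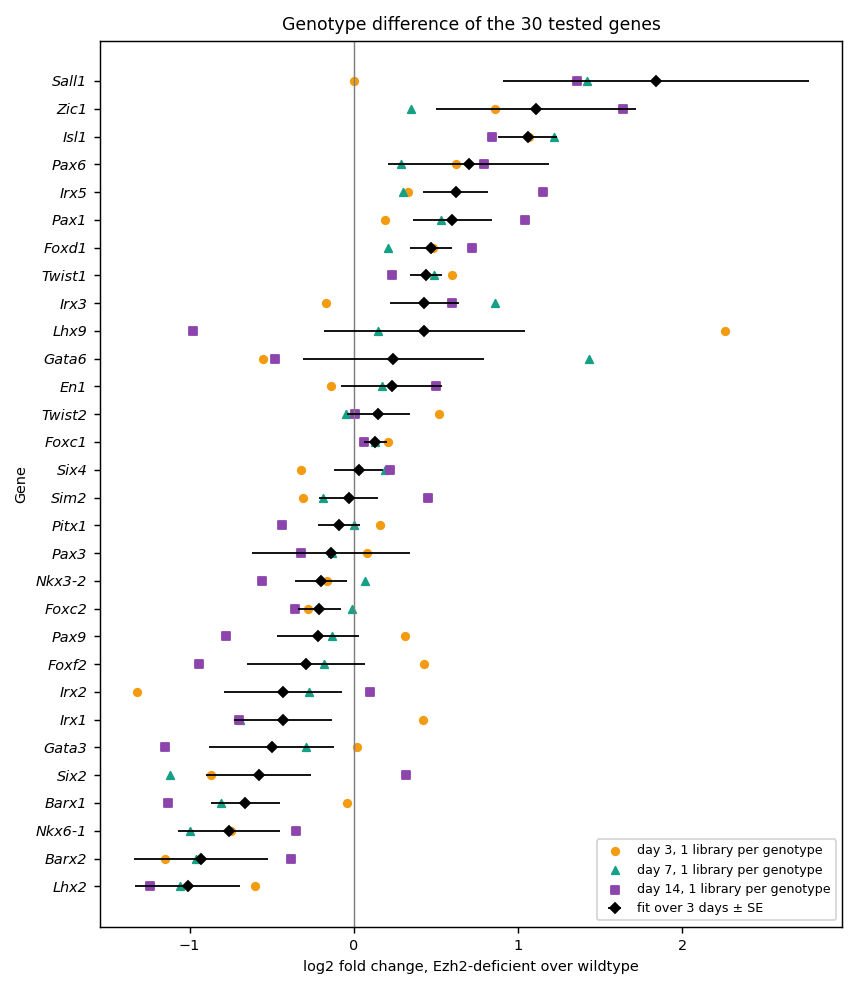
Log2 fold change of Ezh2-deficient over wildtype for the 30 tested genes. Black diamonds are the fit over 3 days with its SE, coloured marks are single days with 1 library per genotype. Isl1 lies to the right of 0 on each day, Lhx2 and Barx2 lie to the left on each day, and Lhx9 changes side between day 3 and day 14.

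Isl1 (chromosome 13, 116298270 to 116309688, mm10), a LIM homeobox gene of the early hindlimb, the second heart field and motor neurons, was at 3.74, 4.07 and 3.76 CPM in Ezh2-deficient libraries at days 3, 7 and 14, against 1.76, 1.73 and 2.09 CPM in wildtype libraries. All 3 Ezh2-deficient libraries lay above all 3 wildtype libraries, and the level hardly moved with time in either genotype. The log2 fold change was 1.06 ± 0.18 (SE, higher on 3 of 3 days; adjusted p = 0.127 in edgeR, 0.00107 in DESeq2 and 0.0982 in limma-voom). Over 11 alternatives its adjusted p ranged from 0.00107 to 1, and the log2 fold change from 0.96 to 1.17. Of the 30 genes, 2 had groups that did not overlap upward, 6.67% against 2.16% of all genes, and 1 downward, 3.33% against 3.04%. The other gene that did not overlap upward was Zic1, of the neural plate and cerebellum, with 5, 6 and 5 fragments in Ezh2-deficient libraries against 2, 4 and 1 in wildtype libraries (log2 fold change 1.11 ± 0.61, adjusted p = 0.494). Barx2, a homeobox gene of epithelium and muscle, did not overlap downward, with 6, 8 and 7 fragments in Ezh2-deficient libraries against 13, 15 and 9 in wildtype libraries (log2 fold change -0.93 ± 0.41, adjusted p = 0.419).

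The other LIM factors took different courses. Lhx9 (chromosome 1, 138825186 to 138847579), which with Lhx2 promotes limb bud outgrowth and also acts in the gonad, was at 5.65, 6.76 and 2.41 CPM in Ezh2-deficient libraries, against 1.15, 6.10 and 4.79 CPM in wildtype libraries. The Ezh2-deficient library was 4.90-fold wildtype at day 3 (95% counting interval 3.46 to 7.12), 1.11-fold at day 7 (0.923 to 1.33) and 0.503-fold at day 14 (0.368 to 0.683). The order of the genotypes thus turned between day 3 and day 14. A fit of the genotype difference against log2 day, with 1 residual degree of freedom, gave a slope of -1.48 ± 0.18 per doubling of day for Lhx9 (adjusted p = 0.046 in edgeR, 0.000153 in DESeq2, 0.0545 in limma-voom). It was the only gene of the set to pass in that fit, 3.33% of 30 against 0.614% of all genes (0.553% downward and 0.0614% upward). Lhx2, of the forebrain, eye and limb bud, was at 0.350, 0.585 and 0.255 CPM in Ezh2-deficient libraries, against 0.546, 1.25 and 0.646 CPM in wildtype libraries. Lhx2 was lower on each day, but the groups overlapped (-1.01 ± 0.32, adjusted p = 0.308).

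Within single days no test is possible, since each genotype had 1 library. Genes were therefore called by a rule of size: the higher of the pair had to reach 1 CPM, the pair had to be 2-fold apart or more after adding a prior count of 2, and the exact 95% counting interval of the ratio had to exclude 1. At day 3, 18 genes of the set had the level required, of which Isl1 and Lhx9 were called higher (11.1%, against 1.82% of all genes with that level) and 0 lower (against 0.548%). At day 7, of 23 genes, Isl1 and Gata6 were called higher (8.7%, against 2.51%), and Lhx2 and Six2 lower (8.7%, against 1.68%). At day 14, of 21 genes, Irx5 and Pax1 were called higher (9.52%, against 2.58%) and Barx1 lower (4.76%, against 3.32%). Isl1 was thus the only gene of the set called on more than 1 day. Lhx9 at day 14 lay just outside the rule, with a log2 difference of -0.98 against the -1 that 2-fold needs, and Pax1 at day 14 just inside, with 1.04.

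**Figure D3:**
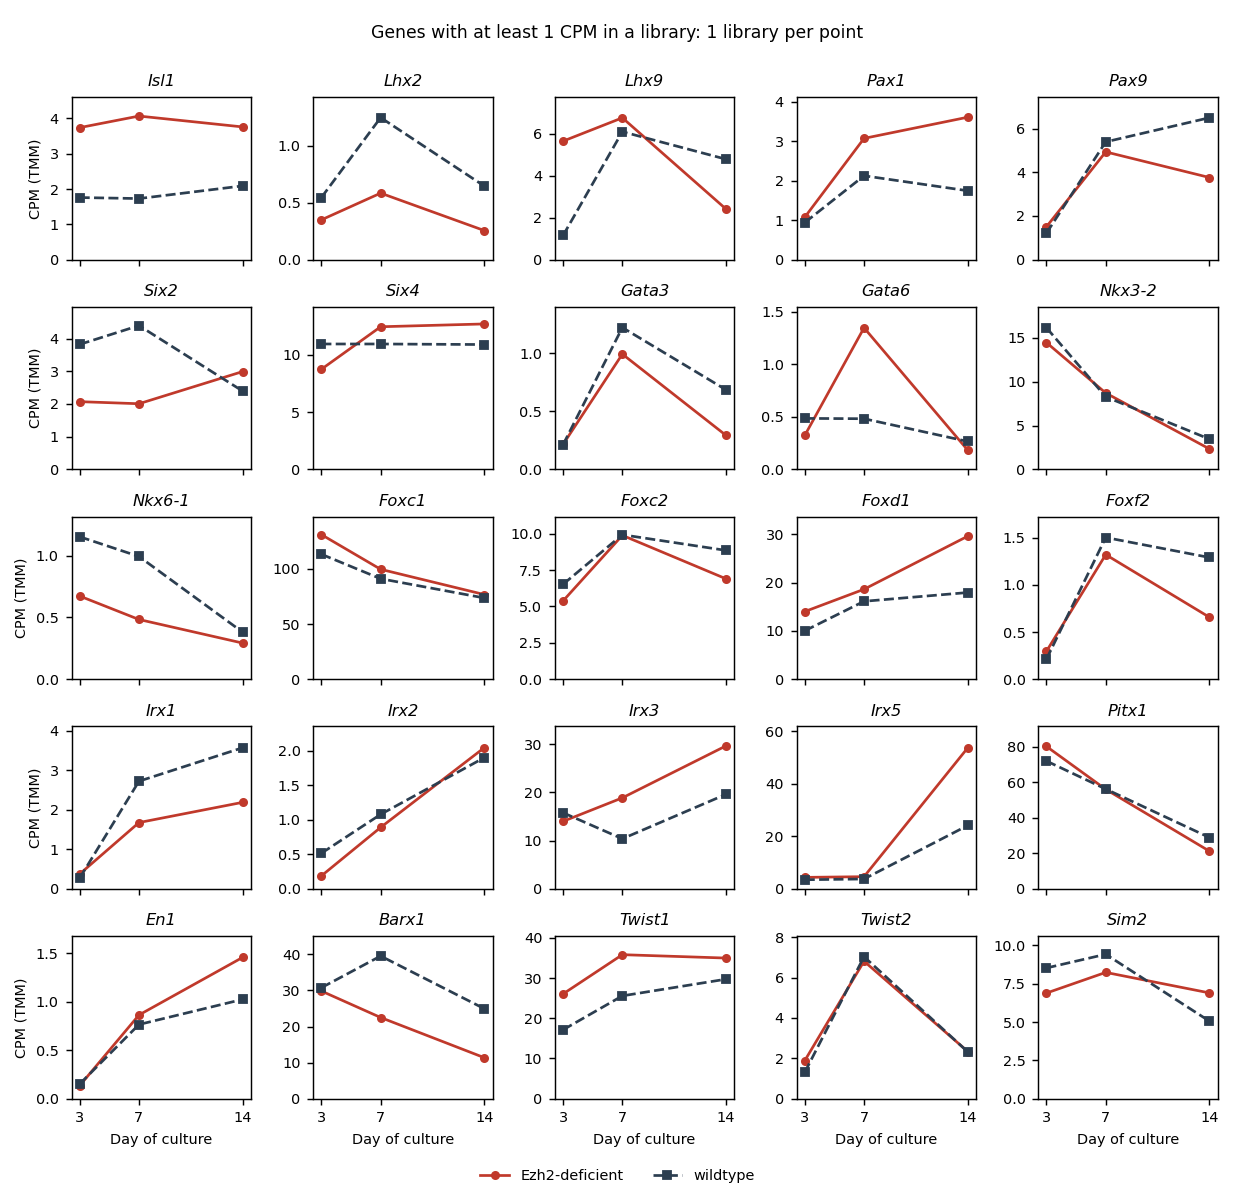
CPM (TMM scaled, linear axes that start at 0) by day of culture for the 25 genes with at least 1 CPM in a library. Each point is 1 library, solid red for Ezh2-deficient and dashed dark for wildtype. The Isl1 lines stay apart, the Barx1 lines part after day 3, and Irx5 climbs at day 14 in both genotypes.

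The Iroquois genes, which pattern limb, heart and neural tissue and lie in clusters, were followed as pairs of neighbours. Irx5 (chromosome 8, 92357796 to 92361456) was at 4.39, 4.65 and 53.6 CPM in Ezh2-deficient libraries, against 3.49, 3.77 and 24.1 CPM in wildtype libraries. Its day 14 ratio was 2.22 (95% counting interval 2.03 to 2.45), and the difference over 3 days was 0.62 ± 0.20 (log2; adjusted p = 0.307 in edgeR, 0.0988 in DESeq2, 0.147 in limma-voom). Without the day 14 pair the difference of Irx5 was 0.32. Irx3 (chromosome 8, 91798511 to 91801654), 556142 bases away, was at 13.99, 18.9 and 29.6 CPM in Ezh2-deficient libraries, against 15.8, 10.4 and 19.6 CPM in wildtype libraries. Irx3 was higher in the Ezh2-deficient library at days 7 and 14 but not at day 3 (0.43 ± 0.21, adjusted p = 0.445; 0.73 ± 0.12 without the day 3 pair, adjusted p = 0.0262). The noncoding entry 4933436C20Rik, 1676 bases from Irx5, was at 2.42, 3.66 and 9.82 CPM in Ezh2-deficient libraries, against 1.85, 2.67 and 5.59 CPM in wildtype libraries. The other pair lies on chromosome 13. Irx1 was at 0.377, 1.68 and 2.19 CPM in Ezh2-deficient libraries, against 0.273, 2.72 and 3.57 CPM in wildtype libraries. Irx2, 665255 bases from Irx1, was at 0.188, 0.890 and 2.04 CPM in Ezh2-deficient libraries, against 0.516, 1.08 and 1.8996 CPM in wildtype libraries. Neither passed (adjusted p = 0.585 and 0.652), and the groups overlapped for both.

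Among factors with a known place in limb and cartilage, Barx1 (chromosome 13, 48663036 to 48666507), a homeobox gene of stomach mesenchyme, molars and forming joints, was at 29.8, 22.5 and 11.35 CPM in Ezh2-deficient libraries, against 30.8, 39.5 and 24.9 CPM in wildtype libraries. The libraries were alike at day 3 (ratio 0.970, 95% counting interval 0.890 to 1.06) and apart at day 7 (0.569, 0.522 to 0.619) and day 14 (0.455, 0.397 to 0.522). The difference over 3 days was -0.66 ± 0.21 (adjusted p = 0.308), and without the day 3 pair it was -0.97 ± 0.12 (adjusted p = 0.0136). Pitx1, which specifies the hindlimb, was at 80.1, 56.0 and 21.2 CPM in Ezh2-deficient libraries, against 71.9, 56.1 and 28.9 CPM in wildtype libraries. Nkx3-2, which keeps chondrocytes from hypertrophy, was at 14.5, 8.72 and 2.34 CPM in Ezh2-deficient libraries, against 16.2, 8.28 and 3.46 CPM in wildtype libraries. Both genes fell with time in each genotype, and neither differed between genotypes by the test (adjusted p = 0.794 and 0.633). En1, of the ventral limb ectoderm and midbrain, was at 0.135, 0.864 and 1.46 CPM in Ezh2-deficient libraries, against 0.152, 0.766 and 1.03 CPM in wildtype libraries.

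The sclerotome factors Pax1 and Pax9, which act in the cells that form vertebral cartilage, parted at day 14. Pax1 was at 1.08, 3.08 and 3.61 CPM in Ezh2-deficient libraries, against 0.940, 2.13 and 1.75 CPM in wildtype libraries. Its day 14 ratio was 2.07 (95% counting interval 1.44 to 3.00), and it was higher on 3 of 3 days without passing (0.60, adjusted p = 0.382). Pax9 was at 1.51, 4.93 and 3.76 CPM in Ezh2-deficient libraries, against 1.21, 5.39 and 6.50 CPM in wildtype libraries, so its groups crossed. Pax3, of muscle and neural crest progenitors, was at 0.127 to 0.161 CPM in Ezh2-deficient and 0.142 to 0.190 CPM in wildtype libraries. Pax6, the eye regulator, was at 0.0763 to 0.296 CPM in Ezh2-deficient and 0.0567 to 0.182 CPM in wildtype libraries.

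The basic helix-loop-helix gene Twist1 (chromosome 12, 33957671 to 33959831), which holds mesenchymal cells back from bone formation, was at 26.1, 35.8 and 35.0 CPM in Ezh2-deficient libraries, against 17.1, 25.6 and 29.7 CPM in wildtype libraries. It was higher on 3 of 3 days by ratios of 1.52, 1.40 and 1.18, although the groups overlapped across days (0.44 ± 0.10, adjusted p = 0.196 in edgeR, 0.031 in DESeq2, 0.147 in limma-voom). Its relative Twist2 was at 1.88, 6.81 and 2.34 CPM in Ezh2-deficient libraries, against 1.304, 7.04 and 2.32 CPM in wildtype libraries, with a peak at day 7 in both. Sim2, related to the fly midline gene single-minded, was at 6.89, 8.24 and 6.90 CPM in Ezh2-deficient libraries, against 8.52, 9.42 and 5.05 CPM in wildtype libraries.

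Of the forkhead genes, Foxd1 (chromosome 13, 98354245 to 98356705), known from kidney stroma and retina, was at 14.0, 18.6 and 29.6 CPM in Ezh2-deficient libraries, against 10.01, 16.1 and 17.9 CPM in wildtype libraries. It was higher on each day, by ratios of 1.40, 1.16 and 1.65, with groups that overlapped (0.47 ± 0.13, adjusted p = 0.254 in edgeR, 0.065 in DESeq2). Foxc1, a mesoderm and skeletal regulator, was at 131, 99.6 and 76.7 CPM in Ezh2-deficient libraries, against 113, 91.1 and 73.6 CPM in wildtype libraries. Its paralog Foxc2 was at 5.38, 9.89 and 6.90 CPM in Ezh2-deficient libraries, against 6.52, 9.93 and 8.85 CPM in wildtype libraries. Foxc1 was thus slightly higher and Foxc2 slightly lower on each day, and neither passed (adjusted p = 0.461 and 0.546). Foxf2, of palate and gut mesenchyme, lies 175240 bases from Foxc1 and was at 0.296, 1.32 and 0.657 CPM in Ezh2-deficient libraries, against 0.212, 1.504 and 1.29 CPM in wildtype libraries.

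The remaining genes belong mainly to kidney, blood, gut, heart and nerve. Six2, which maintains nephron progenitors, was at 2.07, 2.01 and 2.99 CPM in Ezh2-deficient libraries, against 3.82, 4.40 and 2.39 CPM in wildtype libraries. Its ratio was 0.542 at day 3 (95% counting interval 0.403 to 0.725), 0.457 at day 7 (0.344 to 0.603) and 1.25 at day 14 (0.889 to 1.77). The gene was thus below wildtype on the first 2 days only, and did not pass over the 3 days (-0.58, adjusted p = 0.495). Six4, which acts in muscle and sensory organs, was at 8.74, 12.5 and 12.7 CPM in Ezh2-deficient libraries, against 10.95, 10.95 and 10.9 CPM in wildtype libraries. Gata6, of heart and endoderm, was at 0.323, 1.35 and 0.182 CPM in Ezh2-deficient libraries, against 0.485, 0.482 and 0.266 CPM in wildtype libraries. Only the Ezh2-deficient library of day 7 stood out for Gata6, at 53 fragments against 17 in wildtype (ratio 2.79, 95% counting interval 1.59 to 5.15). Gata3, of T cells, kidney and inner ear, was at 0.215, 0.991 and 0.292 CPM in Ezh2-deficient libraries, against 0.212, 1.22 and 0.684 CPM in wildtype libraries. Nkx6-1, of pancreatic beta cells and motor neurons, was at 0.673, 0.483 and 0.292 CPM in Ezh2-deficient libraries, against 1.15, 0.993 and 0.380 CPM in wildtype libraries, lower on 3 of 3 days with overlap (-0.76, adjusted p = 0.386). Sall1, a zinc finger gene of kidney and limb, had 0, 2 and 12 fragments in Ezh2-deficient libraries, against 0, 0 and 4 in wildtype libraries (1.84 ± 0.93, adjusted p = 0.476). That fitted value rests on few fragments.

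Time in culture moved more of these genes than genotype did, as it did in the table at large. Between day 14 and day 3, with the genotypes standing in for replicates, 10 of the 30 genes rose (33.3%, against 23.2% of all genes) and 5 fell (16.7%, against 22.4%). Both directions together made 15 of 30, near the 45.5% of all genes. Irx5 rose by 3.23 ± 0.25 on the log2 scale (adjusted p = 0.000567), Irx1 by 3.07 ± 0.39 (0.00262), En1 by 3.09 ± 0.42 (0.00306) and Irx2 by 2.57 ± 0.47 (0.0082). Pax9, Foxf2, Pax1, Foxd1 and Twist1 also rose, by 0.61 to 1.87. Sall1 passed as well, with 0 fragments in both libraries of day 3. Set against 3 fragments per library there, its day 14 level was 5.43-fold in Ezh2-deficient and 1.67-fold in wildtype libraries. These ratios rest on 12 and 4 fragments at day 14 and leave out their counting error, so they are not lower limits. Nkx3-2 fell by 2.41 ± 0.20 on the log2 scale (adjusted p = 0.0007), Pitx1 by 1.61 ± 0.16 (0.00109), and Nkx6-1, Barx1 and Foxc1 by 0.70 to 1.40. Barx1 no longer passed with library totals only (adjusted p = 0.0694) or in limma-voom (0.0559).

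The step of Irx5 came after day 7. Its day 14 level was 11.5-fold that of day 7 in Ezh2-deficient cells and 6.39-fold in wildtype cells, while day 7 was 1.06-fold day 3 in Ezh2-deficient and 1.08-fold in wildtype cells. Irx1 and En1 had moved by day 7, Irx1 by 4.45-fold in Ezh2-deficient and 9.98-fold in wildtype cells, and En1 by 6.43-fold in Ezh2-deficient and 5.05-fold in wildtype cells. These folds are imprecise, since at day 3 Irx1 had 14 fragments in the Ezh2-deficient and 9 in the wildtype library, and En1 had 5 in each. Lhx9 was 5.29-fold higher at day 7 than at day 3 in wildtype cells, against 1.20-fold in Ezh2-deficient cells.

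Promoters of the set were rich in CpG. Of the 28 with a sequence, 22 had at least 50% G and C and a CpG ratio of at least 0.6, a share of 78.6%, against 46.8% of 15717 genes of the table and 57.4% of the 61 other developmental regulators with a sequence. The median ratio was 0.727 in the set, 0.755 in the other developmental regulators and 0.59 over all genes. By the ratio alone the set was thus not above the other regulators, whose median share of G and C was 59.3% against 65.0% in the set. Among the 19 genes with at least 1 CPM in a library, 17 met the limits, and among the 5 genes with at most 3 fragments in every library 1 did, Gata5. Of all genes with at most 3 fragments in every library, 6.54% met them. These are shares with no test. The 300-base window takes 1 listed start site per gene, which need not be the start used in these cells. For Lhx9 (ratio 0.261) the window, 138842395 to 138842694 on the minus strand, lay inside the span of the gene, 138825186 to 138847579. For Lhx2 (ratio 0.885) the window, 38339031 to 38339330 on the plus strand, lay before the span of the gene, 38351308 to 38369728. The windows of Irx2, Pax9 and Six4 also lay outside the spans of those genes.

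**Figure D4:**
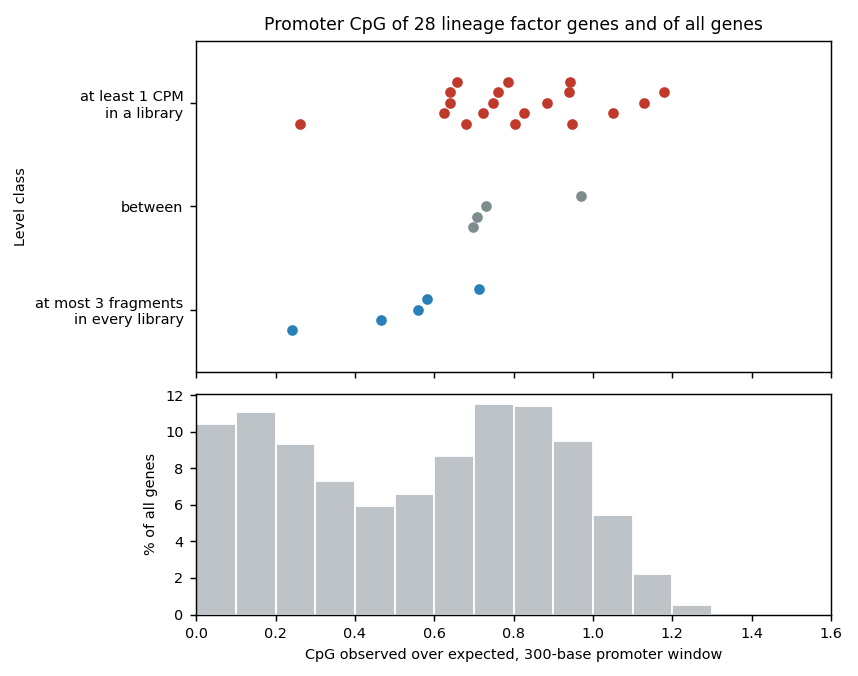
Ratio of observed to expected CpG (horizontal axis) in the 300-base promoter window of 28 genes of the set (upper panel, 1 point per gene, small vertical offsets only to separate points) and of all genes (lower panel, percent per bin of 0.1, a few genes beyond the axis). Of the 5 genes with at most 3 fragments, 4 lie below 0.6, and of the 19 with at least 1 CPM, 1 does.

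Within 100 kb, 29 of the 37 genes had neighbours in the table, 77 entries in all, of which 50 were tested. None of the 50 passed for genotype in edgeR. At an unadjusted p under 0.05 there were 4 of the 50, among them 4933436C20Rik, Dennd1a and Marco. Over all genes 6.82% were higher and 6.33% lower at that level, so this count does not stand out. Of the 5 silent genes, 4 had a neighbour at 1 CPM or more, such as Got1 and Entpd7 near Nkx2-3. Of all entries 60.1% reached that level in a library, and how many other genes have such a neighbour was not counted. Annotated entries overlapped 5 genes of the set and reached at most 0.19 CPM, the value of Snora19 over Nkx2-3. Reads that fall in such overlaps may have been counted for either entry or for neither, and how many is not known here. Strandedness was not stated in the sources used here.

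A list of 94 other developmental regulators that Polycomb typically represses was read for comparison. Of these, 35 had at most 3 fragments in every library and 34 reached 1 CPM in a library, against 5 and 25 of the 37-gene set. Over all entries the shares were 26.1% and 60.1%. Of the 94, 47 were tested, with a median difference of 0.24 (log2), against 0.00 over all genes. None passed in edgeR. Without adjustment of p, 11 were higher, 23.4% against 6.82% of all genes, and 4 were lower, 8.51% against 6.33%. DESeq2 called 7 higher, 14.9% against 2.34% of all genes, and 2 lower, 4.26% against 1.5%. The shares of higher genes were thus above those of the 37-gene set, 13.3% and 6.67%, with no test of that difference. Both lists were chosen with earlier results of these data known, so these shares only describe the lists. Among those with the smallest p were Alx1 and Alx4, homeobox genes of craniofacial and limb mesenchyme (3.55 and 1.51, adjusted p = 0.0566 and 0.0867), and Sox8, a relative of Sox9 (-0.58, adjusted p = 0.0799). Of the 11 tested genes of Polycomb repressive complex 2, none passed in edgeR, and Ezh2 and Aebp2, an accessory subunit (-0.17, adjusted p = 0.36), were lower before adjustment. DESeq2 and limma-voom each called 1 of them lower, Ezh2 (adjusted p = 5.66e-07 and 0.0485).

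Markers of cartilage and of other cell types were read in the same libraries, and none of any list passed for genotype in edgeR at an adjusted p under 0.05. The counts of markers below are at an unadjusted p under 0.05, at which 6.82% of all genes were higher and 6.33% lower. In these bulk samples, fewer cells of a type and less RNA per cell cannot be told apart. The summed level of 9 osteoblast markers was 1930, 10350 and 99690 CPM in Ezh2-deficient libraries, against 1382, 8579 and 50260 CPM in wildtype libraries, with 8 higher. Without Col1a1, which is also in the list for fibroblasts, the osteoblast sum was 796.7, 2673 and 36710 CPM in Ezh2-deficient libraries, against 678.6, 1984 and 15670 CPM in wildtype libraries. Most of that sum at day 14 was Ibsp, at 29946 CPM in the Ezh2-deficient and 8246 CPM in the wildtype library. Spp1, the next largest, went the other way at day 14, at 3755 CPM in the Ezh2-deficient and 5705 CPM in the wildtype library. The 6 smooth muscle markers summed to 187.6, 505.4 and 270.3 CPM in Ezh2-deficient libraries, against 70.86, 342.1 and 234.3 CPM in wildtype libraries, with 4 higher. The 6 adipocyte markers summed to 82.3, 338.3 and 121.6 CPM in Ezh2-deficient libraries, against 16.5, 170.1 and 65.61 CPM in wildtype libraries, with 6 higher. The 11 markers of fibroblasts, tendon and joint lining summed to 2640 to 70370 CPM in Ezh2-deficient and 2008 to 43300 CPM in wildtype libraries, with 4 higher and 2 lower. Most of that sum at day 14 was Col1a1, at 62979 CPM in the Ezh2-deficient and 34581 CPM in the wildtype library. Without Col1a1 the sum was 1507, 6950 and 7394 CPM in Ezh2-deficient libraries, against 1305, 5674 and 8719 CPM in wildtype libraries. The order of that sum turned at day 14, when most of it was Col3a1, at 5629 CPM in the Ezh2-deficient and 7162 CPM in the wildtype library. The turn therefore describes mainly Col3a1 and not the list as a whole. Of the 12 cartilage markers 7 were lower and 0 higher. At an adjusted p under 0.05, DESeq2 called 5 osteoblast, 4 adipocyte, 3 smooth muscle, 3 fibroblast and 1 skeletal muscle markers higher. It called 3 cartilage markers and 1 neural marker lower. Over all genes it called 2.34% higher and 1.5% lower. At that threshold limma-voom called 3 osteoblast markers and 1 smooth muscle marker higher and none lower, against 0.19% and 0.0553% of all genes. The summed levels of cardiac, skeletal muscle and endothelial markers were low in all libraries. Cardiac markers (5 genes) summed to at most 2.13 CPM in Ezh2-deficient and 1.09 CPM in wildtype libraries. Skeletal muscle markers (8 genes) summed to at most 15.5 CPM in Ezh2-deficient and 13.7 CPM in wildtype libraries. Endothelial markers (7 genes) summed to at most 7.27 CPM in Ezh2-deficient and 9.42 CPM in wildtype libraries. Myod1 and Myf5, which define the muscle lineage, had at most 3 fragments in every library. Epithelial markers (6 genes) summed to 0.915 to 3.36 CPM in Ezh2-deficient and 1.46 to 3.65 CPM in wildtype libraries. Neural markers (9 genes) summed to 41.97 to 349.0 CPM in Ezh2-deficient and 107.4 to 386.6 CPM in wildtype libraries. Most of that sum was S100b, at 341, 122 and 31.5 CPM in Ezh2-deficient libraries, against 380, 241 and 97.9 CPM in wildtype libraries. The highest value of another neural marker was 8.10 CPM, for Tubb3 in the Ezh2-deficient library of day 14. Markers of macrophages and blood (8 genes, Hba-a1 and Hbb-b1 at 0) summed to 100.9 to 2511 CPM in Ezh2-deficient and 140.7 to 1789 CPM in wildtype libraries. The part of these cells in the differences of Isl1, Irx5, Pax1 or Barx1 was not tested.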

How the data were processed

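RNA-seq counts per gene and RPKM values were deposited by the authors for each of 6 libraries in 1 table. The counts were deposited as whole numbers without normalization. The same table holds the authors' RPKM, which scale the counts by a coding length and a library total, per the file headers and the values. Per the submitters' processing notes, CASAVA 1.9, TopHat 12.0.6, HTSeq and mm10 were used. Their settings, the annotation and strandedness were not stated in the sources used here. RPKM served only to compare levels between genes. The members and all lists were chosen with earlier results of these data known.

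Counts were fitted in R 4.3.3 with edgeR 4.0.16 (quasi-likelihood F test, two-sided, TMM factors from 0.935 to 1.09, filterByExpr grouped by day, minimum count 10, 16280 genes, Benjamini-Hochberg adjustment over all of them, threshold 0.05). The model held day and genotype, with 2 residual degrees of freedom. SE was taken as the size of the log2 fold change over the root of F. A second fit added genotype by centred log2 day. The alternatives were RLE factors, library totals, 2 other filters, DESeq2 1.42.0, limma-voom (limma 3.58.1), halved counts, each day pair left out and no day term. Ratios within a day carry exact 95% intervals from fragments, computed with scipy 1.17.1 in Python 3.11.15, which cover counting error only. The labels do not say that libraries came from separate animals or cultures, so p-values measure only the spread between these libraries.

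Every member was named. Values of all 6 libraries were given for members with at least 1 CPM in a library, and SE and adjusted p for members at an unadjusted p under 0.05 and for the 5 largest fold changes. Others were added after their values were seen, as were the sums without Col1a1, the sex-linked genes and the pairs of members within 1 Mb. The values of 1 gene outside the set are not reported here.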

Additional observations from a re-analysis of the deposited data

Results flagged for a closer look

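Lhx9 is picked out because the genotype difference changed with day: its slope was -1.48 ± 0.18 (log2 per doubling of day, SE; adjusted p = 0.046 in edgeR). The Ezh2-deficient library was above wildtype at day 3 (5.65 CPM against 1.15 CPM in wildtype) and below it at day 14 (2.41 CPM against 4.79 CPM in wildtype). Over 4 alternatives the adjusted p ran from 0.000153 to 0.0545, and the slope did not pass in limma-voom. Each day had 1 library per genotype, and the fit leaves 1 residual degree of freedom.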

How the results depend on the processing

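For the genotype difference over 3 days edgeR called 2 genes of the whole table. The count was 9 with RLE factors, 9 with no filter, 1 with at least 1 CPM in 3 libraries, 0 with library totals only, 625 in DESeq2 and 40 in limma-voom. With no replicate block, that is without the pairing by day, it was 0, and with one day pair left out it lay between 0 and 863. For the set the count was 0, against 2 in DESeq2 and 0 to 2 with one day pair left out (2 without the day 3 pair), and it was 0 under the other alternatives. The count of the set for the trend with day was 1, against 2 with library totals only, where Barx1 also passed (adjusted p = 0.042), and 0 in limma-voom. At 1.5-fold in place of 2-fold, the single-day rule called 5 genes at day 3, 7 at day 7 and 10 at day 14, against 2, 4 and 3. No other alternative moved these counts by over 1.5 times.

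Signs of the genotype difference turned for 8 genes when a day pair was left out. The values ran from -0.39 (without day 3) to 1.15 for Lhx9, -0.0208 (without day 3) to 0.26 for Twist2, -0.24 to 0.12 (without day 3; 0.0615 without day 7) for Sim2, and -0.57 (without day 7) to 0.73 for Gata6. They ran from -0.0618 (without day 14; -0.0566 without day 7) to 0.2 for Six4, and, with the upper value without day 14, from -0.45 to 0.0786 for Pax9, -0.55 to 0.0732 for Foxf2 and -0.22 to 0.0819 for Pitx1. Pitx1 was 0.00343 with no replicate block. For day 14 against day 3, Lhx2 was 0.00291 and Six2 0.0419 with library totals only, and Six2 was 0.00141 in DESeq2. The trend of Sall1 was 0.53 in DESeq2 and 0.48 in limma-voom. The cause was not tested. Of 312 values of single genes for the genotype difference, 297 kept their direction and their side of the threshold. Depth limits the 12 genes under 1 CPM in every library, whose differences rest on few fragments.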
